A study of Mus musculus with 40 samples.

Results

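Channel genes that set the electrical properties of the skeletal muscle membrane were followed here through the extensor digitorum longus (EDL, a fast-twitch hindlimb muscle) of mice with and without sustained activity of mTORC1, a growth-promoting kinase complex. They were chosen by name: Scn4a, Scn4b, Clcn1, Kcnn3, Kcnj2 and Kcna7 make up 6 of the 22844 genes in the deposited tables, and all 6 were among the 13543 genes that passed the filter on low counts (reached by a gene with 1 CPM, counts scaled to the same total in each library, in no fewer than 5 libraries). Messenger RNA from 40 EDL muscles was sequenced in 8 groups of 5. TSCmKO mice carry floxed alleles of Tsc1, an inhibitor of mTORC1, that are deleted in skeletal muscle fibers, and the controls (CON) are littermates with the same floxed alleles (Tsc1 fl/fl) and no Cre. The strain label of every mouse is Tsc1tm1Djk/J. Mice were 3 or 9 months old (prefix 3m or 9m), and each genotype received vehicle or rapamycin, an inhibitor of mTORC1 (suffix +RM), by intraperitoneal injection for 3 days. The labels give the dose as 4 mg per kg, while the study text names a higher daily dose for this treatment. The promoter that drives Cre and the sex of these mice are not given in the sources used here.

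A muscle action potential rises through the voltage-gated sodium channel Nav1.4, whose pore is encoded by Scn4a, and Scn4b encodes an accessory beta subunit of sodium channels. Chloride flow through ClC-1, encoded by Clcn1, carries most of the resting conductance of the fiber membrane and keeps a fiber from firing repeatedly, and loss of it causes myotonia. Potassium channels set and restore the resting potential: Kcnj2 encodes the inward rectifier Kir2.1, Kcna7 the voltage-gated Kv1.7, and Kcnn3 the calcium-activated small-conductance channel SK3. SK3 is scarce in innervated adult muscle and is known to appear in immature and denervated fibers.

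The 6 genes lie on 5 chromosomes of the GRCm38 assembly in the GENCODE M21 annotation. Scn4a (ENSMUSG00000001027) spans chromosome 11 from 106318592 to 106353288 on the minus strand. The other five are on the plus strand: Kcnj2 (ENSMUSG00000041695) at chromosome 11 from 111066164 to 111076821, Scn4b (ENSMUSG00000046480) at chromosome 9 from 45138395 to 45154152, Clcn1 (ENSMUSG00000029862) at chromosome 6 from 42286685 to 42315756, Kcnn3 (ENSMUSG00000000794) at chromosome 3 from 89520164 to 89675132, and Kcna7 (ENSMUSG00000038201) at chromosome 7 from 45405653 to 45409763. No annotated gene overlapped any of them on the same strand. Stretches of 31 bases shared with transcripts of other protein-coding genes made up 63 of the 6568 in Scn4a and 16 of the 5393 in Kcnj2, and there were none in the other four, so that few reads could have been split with relatives.

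The 250 bases before the RefSeq start (GRCm38.p6) are shown for 2 genes that were lower together in 9mTSCmKO muscle, Scn4a and Clcn1, and for Kcnn3, which was higher. Capitals mark matches on either strand to the E-box CANNTG, the motif of myogenic basic helix-loop-helix factors, and to the MEF2 motif, an A/T-rich site of muscle gene promoters.
Scn4a, chr11:106349391-106349640, minus strand: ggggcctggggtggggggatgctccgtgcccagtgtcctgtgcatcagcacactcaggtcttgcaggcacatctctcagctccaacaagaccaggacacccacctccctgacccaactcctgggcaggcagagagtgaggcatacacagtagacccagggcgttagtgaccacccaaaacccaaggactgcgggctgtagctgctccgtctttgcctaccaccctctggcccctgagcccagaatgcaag
Clcn1, chr6:42286435-42286684, plus strand: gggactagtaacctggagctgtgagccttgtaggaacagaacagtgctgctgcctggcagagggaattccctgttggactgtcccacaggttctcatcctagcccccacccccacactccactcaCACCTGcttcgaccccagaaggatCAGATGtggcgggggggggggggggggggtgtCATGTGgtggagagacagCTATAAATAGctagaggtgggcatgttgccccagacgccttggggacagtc
Kcnn3, chr3:89519914-89520163, plus strand: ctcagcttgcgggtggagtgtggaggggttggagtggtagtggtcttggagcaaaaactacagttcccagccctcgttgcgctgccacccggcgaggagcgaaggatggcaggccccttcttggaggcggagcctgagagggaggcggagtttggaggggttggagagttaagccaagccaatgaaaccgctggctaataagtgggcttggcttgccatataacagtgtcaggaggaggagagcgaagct
Clcn1 held 3 E-boxes, one of them CACCTG, and 1 MEF2 match, CTATAAATAG at positions -51 to -42 from the start, which overlaps the only TATAAA of the window. Scn4a and Kcnn3 held neither motif. Of the genes not shown, Kcna7 held 3 E-boxes, Kcnj2 held 2 and Scn4b none, with no MEF2 match. Across the windows of 32851 RefSeq genes, 66.2% held at least 1 E-box, 2.92% a MEF2 match, 12.4% TATAAA and 17.2% CACCTG. The RefSeq start of Scn4a lies 3898 bases inside the 5′ end of the GENCODE gene, and those of Scn4b and Kcna7 lie 229 and 307 bases inside, with windows that overlap annotated exons. The starts of Clcn1, Kcnn3 and Kcnj2 are the same in both annotations.

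Total estimated counts per library ran from 8883870 to 35224669. Tsc1 itself, as a check of the labels, was at 24.4 to 35.8 CPM in the 9mTSCmKO libraries and 51.3 to 122 in 9mCON, and at 26.5 to 30.7 in 3mTSCmKO and 84.1 to 134 in 3mCON. Whole EDL also holds fibroblasts, vessels and nerve, and a lower level of a fiber gene cannot be told apart from a smaller share of fiber RNA. The summed level of 9 muscle fiber markers was 100077 to 121547 TPM (transcripts scaled by length and to the same total in each library) in 9mTSCmKO against 134391 to 148452 in 9mCON, with 6 of the 9 lower, and 8 slow and oxidative fiber markers summed to 1681 to 4144 against 192 to 522, with 7 of the 8 higher. None of these markers was at 0 in all libraries. The muscle fiber list includes the fast-fiber genes Myh4, Myh1, Tnnt3 and Actn3. A smaller share of fiber RNA therefore cannot be told apart from a change of fiber type by its sum. The labels put library insert size between 175 and 239 nt in the younger mice and between 223 and 308 nt in the older ones, so a difference between ages cannot be told apart from one between insert sizes. Hemoglobin and other erythroid transcripts summed to 21122 TPM in 9mCON replicate 1 and to 28731 TPM in 3mTSCmKO replicate 3, and stayed under 10000 TPM elsewhere.

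Per transcript length, the sodium and chloride channel genes were far above the potassium channel genes. In 3mCON muscle Scn4a was at 318 ± 29.7 TPM (mean ± SD, n = 5 here and below), Scn4b at 243 ± 21.3 and Clcn1 at 155 ± 18.0. Kcnj2 followed at 34.4 ± 7.44 TPM and Kcna7 at 32.2 ± 6.11, which overlapped each other, and Kcnn3 was the lowest at 2.35 ± 0.470 TPM. All 4 groups at 3 months had mean TPM in the order Scn4a, Scn4b, Clcn1. In 9mCON Scn4b (239 ± 56.8 TPM) had a higher mean than Scn4a (207 ± 95.4 TPM), with wide overlap, and Clcn1 (144 ± 23.5 TPM) stayed the third. Over all 40 libraries the estimated counts were between 4536 and 31502 for Scn4a, 4213 and 23647 for Scn4b, 1803 and 8664 for Clcn1, 695 and 3674 for Kcnj2, 106 and 1226 for Kcna7, and 49 and 908 for Kcnn3, so Kcnn3 had the least counting precision.

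**Figure D1:**
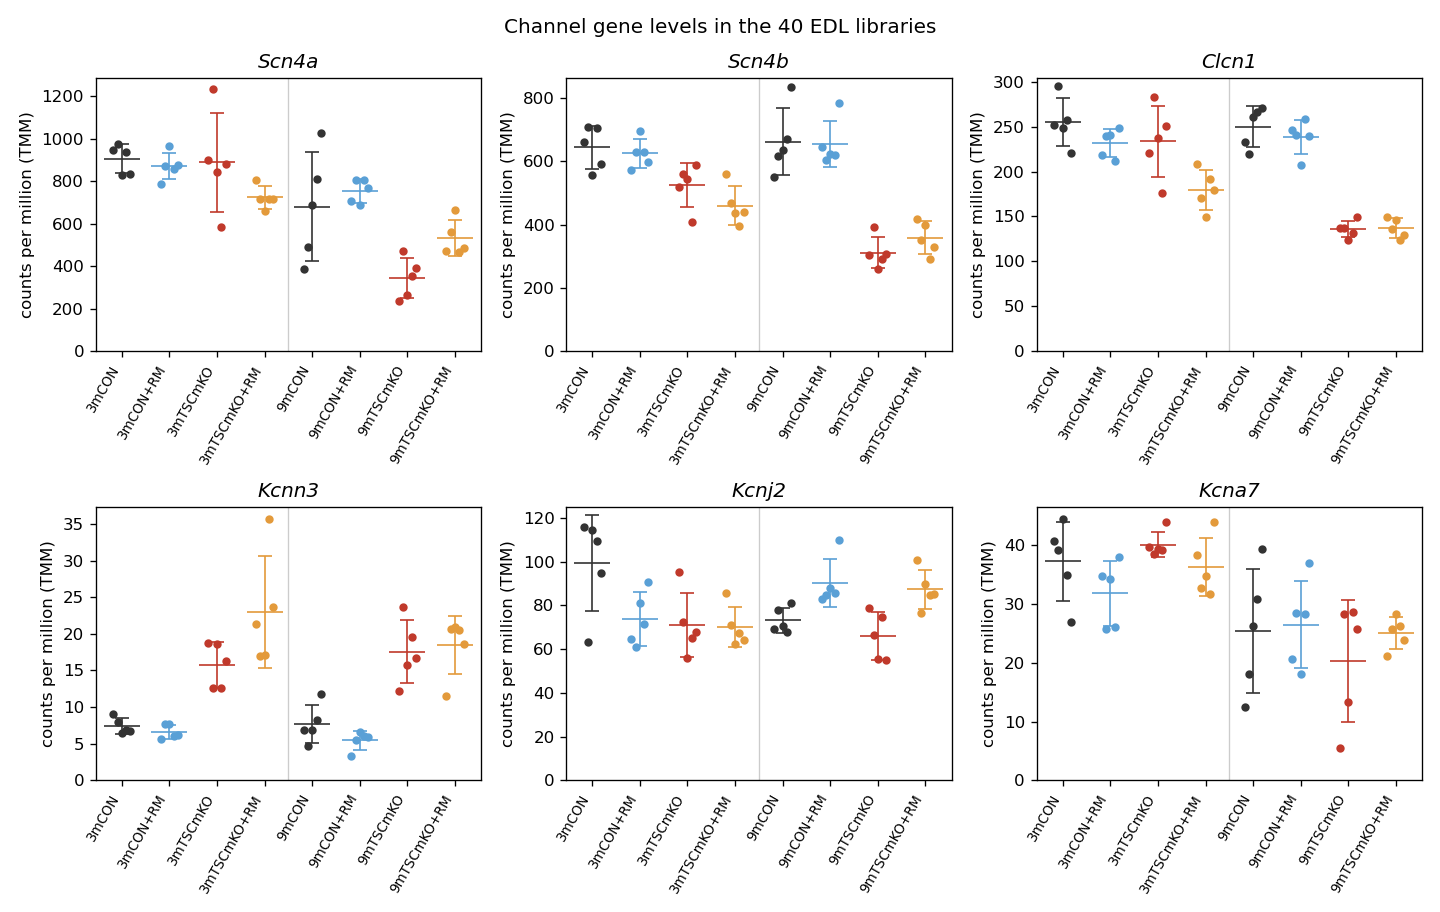
CPM after TMM scaling (y axis, from 0) for the 6 channel genes in each of the 8 groups (x axis), with 1 point per library and a bar for the mean ± SD of 5 libraries. Clcn1 and Scn4b are low in both 9mTSCmKO groups, Kcnn3 is high in all 4 TSCmKO groups, and Scn4a and Kcna7 spread widely within 9mCON.

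The comparison of genotypes at 9 months asked how the channel genes stand in muscle with long-lasting mTORC1 activity. Both sodium channel genes and the chloride channel gene were lower in 9mTSCmKO than in 9mCON muscle, by 1.84- to 2.13-fold, and Kcnn3 was 2.26-fold higher. Kcnj2 and Kcna7 did not pass the test. Thus 1 of 6 was higher and 3 of 6 were lower at an adjusted p under 0.05 (edgeR quasi-likelihood test, Benjamini-Hochberg over all genes tested), where 19.1% of all genes tested were higher and 18.9% lower. The median log2 fold change of the 6 was -0.60, against -0.02 over all genes tested.

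Scn4b was at 304, 391, 261, 290.2 and 308 CPM in the 9mTSCmKO libraries and at 550.5, 617.9, 637, 669.7 and 833 in 9mCON. Each knockout library lay below every control library. The log2 fold change was -1.09 ± 0.12 (SE), with an adjusted p of 4.37e-09.

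For Clcn1 the 9mTSCmKO libraries gave 137, 138, 124, 131 and 149 CPM and the 9mCON libraries 233, 219.5, 260.2, 266 and 271. These groups did not overlap, with coefficients of variation of 6.78% and 8.96%. The log2 fold change was -0.88 ± 0.10 (adjusted p = 9.93e-09).

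Scn4a read 236, 471, 266, 356 and 394 CPM in 9mTSCmKO and 385, 492, 687, 813 and 1029 CPM in 9mCON. Here the groups overlapped: the lowest control library, replicate 1, lay below the 2 highest knockout libraries. The log2 fold change was -0.98 ± 0.18 (adjusted p = 4.48e-05), and leaving out 1 library at a time kept it between -1.12 and -0.76, past the threshold each time.

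Kcnn3 was measured at 12.2, 23.7, 15.8, 19.5 and 16.7 CPM in 9mTSCmKO and at 6.91, 4.75, 6.82, 8.30 and 11.7 CPM in 9mCON. The lowest knockout library was just above the highest control library, 9mCON replicate 5. The log2 fold change was 1.18 ± 0.21 (adjusted p = 2.59e-05). In TPM it remained the scarcest of the 6, at 5.25 ± 1.92 against 2.25 ± 1.0.

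For Kcnj2 the values were 66.1 ± 10.9 CPM in 9mTSCmKO and 73.2 ± 5.73 CPM in 9mCON, a log2 fold change of -0.15 that with 2 SE each way spanned -0.43 to 0.13 (adjusted p = 0.423). Kcna7 read 20.3 ± 10.4 and 25.4 ± 10.6 CPM, a log2 fold change of -0.33 with an interval of -0.86 to 0.21 (adjusted p = 0.349). The libraries of Kcna7 ran from 5.51 to 28.6 CPM in 9mTSCmKO and from 12.5 to 39.4 CPM in 9mCON.

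At 3 months Scn4a, Scn4b and Clcn1 did not pass the test, while Kcnn3 was higher in 3mTSCmKO and Kcnj2 lower, where 11.4% of all genes tested were higher and 8.32% lower. Kcnn3 was at 18.7, 12.5, 18.7, 12.5 and 16.3 CPM in 3mTSCmKO against 9.07, 8.01, 6.49, 6.84 and 6.67 CPM in 3mCON. Its groups did not overlap, and the 2.13-fold difference (log2 1.09 ± 0.21, adjusted p = 0.000174) stood beside the 2.26-fold at 9 months. Kcnj2 read 95.0, 72.2, 55.8, 65.2 and 67.6 CPM in 3mTSCmKO and 116, 63.2, 114, 109 and 94.9 CPM in 3mCON. Control replicate 2 lay among the knockout libraries, and control replicate 5 was just below the highest of them. The log2 fold change was -0.49 ± 0.14 (adjusted p = 0.0106), and the call was lost without 3mCON replicate 1 (log2 -0.41, adjusted p = 0.0508) and without the 2 libraries rich in erythroid transcripts (log2 -0.39, adjusted p = 0.0589).

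Scn4b stood at 524 ± 69.6 CPM in 3mTSCmKO against 644 ± 67.9 in 3mCON, a log2 fold change of -0.30 with an interval of -0.54 to -0.05 and an adjusted p of 0.082. With upper-quartile scaling its adjusted p was 0.0336. Clcn1 stood at 234 ± 39.3 against 255 ± 26.7 CPM (log2 -0.13, -0.33 to 0.08) and Scn4a at 889 ± 232 against 906 ± 67.4 CPM (log2 -0.03, -0.39 to 0.33). Kcna7 stood at 40.1 ± 2.15 against 37.2 ± 6.73 CPM (log2 0.10, -0.42 to 0.63).

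Whether the genotype difference itself changed with age was tested as an interaction, which 4.94% of all genes tested passed. It was more negative at 9 than at 3 months for Scn4a (by 0.96 ± 0.26 on the log2 scale, adjusted p = 0.0226), Scn4b (by 0.79 ± 0.17, adjusted p = 0.00449) and Clcn1 (by 0.75 ± 0.15, adjusted p = 0.00134). For Kcnn3 the difference between ages was 0.09 with an interval of -0.50 to 0.68, for Kcnj2 0.34 (-0.06 to 0.73) and for Kcna7 -0.43 (-1.18 to 0.32), and none of these passed. The interaction of Scn4a was lost without 3mTSCmKO replicate 2 (adjusted p = 0.0691), without 9mCON replicate 5 (adjusted p = 0.0745), with only the groups compared in the fit (adjusted p = 0.141) and with limma on log2(TPM + 1) (adjusted p = 0.0917). Those of Scn4b and Clcn1 kept their call in each of these.

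**Figure D2:**
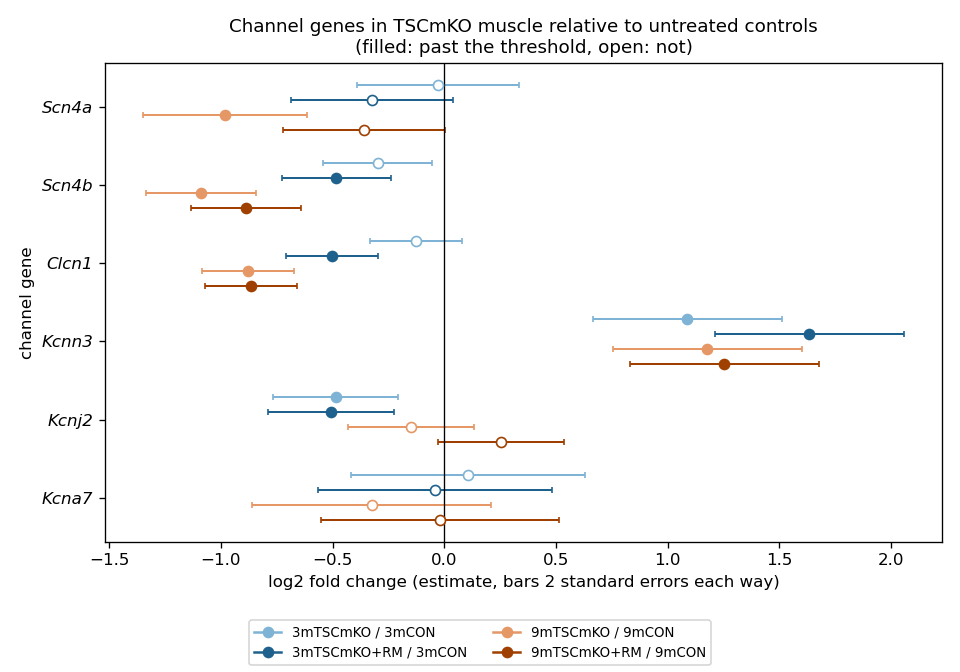
Log2 fold change of each channel gene (x axis) in untreated and rapamycin-treated TSCmKO muscle relative to the untreated control of the same age, with bars of 2 standard errors each way and filled points past an adjusted p of 0.05. Scn4b and Clcn1 lie between -1.09 and -0.87 at 9 months with or without rapamycin, and Kcnn3 lies between 1.09 and 1.63 in all 4 comparisons.

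Age was then compared within each genotype. In CON muscle none of the 6 passed between 3 and 9 months (3 at an unadjusted p under 0.05, and 0 by DESeq2 and by limma), where 0.679% of all genes tested were higher and 0.34% lower. In TSCmKO muscle 4 of the 6 were lower at 9 months, where 19.1% of all genes tested were higher and 18.3% lower. The log2 fold changes from 3mTSCmKO to 9mTSCmKO were -1.37 ± 0.18 for Scn4a (adjusted p = 6.03e-07), -0.75 ± 0.12 for Scn4b (1.34e-05), -0.78 ± 0.10 for Clcn1 (4.43e-07) and -0.98 ± 0.27 for Kcna7 (adjusted p = 0.0040). No 9mTSCmKO library of these 4 genes reached the lowest 3mTSCmKO library, a gap that was not counted over all genes tested. With them, 5 of 9 muscle fiber markers were lower at 9 months in TSCmKO, 5 of 8 slow and oxidative fiber markers were higher and 1 lower, 9 of 11 denervated fiber markers were higher, 6 of 8 fibroblast and 5 of 7 adipocyte markers were lower, and of 7 tendon markers 5 were lower and 1 higher. Lower too were 4 of 5 erythroid, 4 of 8 endothelial, 3 of 8 smooth muscle and pericyte and 1 of 5 satellite cell markers, while 1 of 10 Schwann markers was higher and macrophage markers had 2 of 8 higher and 1 lower. Without the erythroid-rich libraries the same 4 channel genes passed (Scn4a log2 -1.38, Scn4b -0.73, Clcn1 -0.77 and Kcna7 -0.98). Muscle fiber markers summed to 100077 to 121547 TPM at 9 months against 121352 to 160279 TPM at 3 months, and their part in the age values was not tested. The call on Kcna7 was lost with insert size as a term in the fit (log2 -0.59, adjusted p = 0.265), while Scn4a, Scn4b and Clcn1 kept theirs. That fit called 1701 genes in all for this comparison, against 5064 without the term. In CON muscle Scn4a was at -0.41 (-0.77 to -0.05) and Kcnj2 at -0.44 (-0.73 to -0.16) on the log2 scale with adjusted p of 0.229 and 0.0925. Both passed without 9mCON replicate 5 (Scn4a log2 -0.61, adjusted p = 0.0353, and Kcnj2 log2 -0.48, adjusted p = 0.0448), and Kcnj2 also without 3mCON replicate 2 (log2 -0.57, adjusted p = 0.0380).

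Rapamycin for 3 days was given to ask what depends on current mTORC1 activity. In 9mTSCmKO muscle, 2 of the 6 were higher after rapamycin and none was lower, where 15.8% of all genes tested were higher and 16.8% lower. Scn4a rose to 474, 559.6, 667, 468 and 487 CPM in 9mTSCmKO+RM from the 236 to 471 CPM of the untreated libraries. The highest untreated library, replicate 2, overlapped the lowest treated one. The rise was 1.54-fold (log2 0.62 ± 0.18, adjusted p = 0.00764). Kcnj2 rose to 101, 76.6, 89.6, 84.5 and 85.1 CPM from 78.8, 66.6, 55.3, 74.6 and 55.0, with 1 untreated library above the lowest treated one. This 1.32-fold rise (log2 0.40 ± 0.14, adjusted p = 0.0254) did not pass without 9mTSCmKO replicate 3 or 5 or 9mTSCmKO+RM replicate 1 (adjusted p = 0.0739, 0.0738 and 0.0776).

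Clcn1, Scn4b and Kcnn3, which differed between genotypes at 9 months, did not pass after rapamycin in 9mTSCmKO. Clcn1 read 149.7, 137, 146, 124 and 129 CPM in 9mTSCmKO+RM, nearly the same range as the untreated knockout libraries, with a log2 fold change of 0.01 and an interval of -0.19 to 0.22. Scn4b was at 358 ± 52.2 against 311 ± 48.6 CPM (log2 0.20, -0.04 to 0.45) and Kcnn3 at 18.5 ± 3.95 against 17.6 ± 4.32 CPM (log2 0.08, -0.33 to 0.48). Kcna7 was at 25.1 ± 2.68 against 20.3 ± 10.4 CPM (log2 0.31, -0.23 to 0.84). The muscle fiber markers were higher after rapamycin, as Scn4a and Kcnj2 were: their sum was 133731 to 152223 TPM in 9mTSCmKO+RM against 100077 to 121547 TPM in 9mTSCmKO, with 6 of the 9 higher. Of 11 denervated fiber markers, 7 were lower and 3 higher, with a median log2 fold change of -0.63 and sums of 937.6 to 1878 TPM against 836 to 1336. The part of both lists in the change of Scn4a and Kcnj2 was not tested.

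Set against untreated 9mCON muscle, 9mTSCmKO+RM muscle still had lower Scn4b (log2 -0.89 ± 0.12, adjusted p = 4.89e-07) and Clcn1 (log2 -0.87 ± 0.10, adjusted p = 2.8e-08) and higher Kcnn3 (log2 1.25 ± 0.21, adjusted p = 1.42e-05), where 15.7% of all genes tested were higher and 16.2% lower. Scn4a was at log2 -0.36 with an interval that ran from -0.72 to 0.00 and an adjusted p of 0.13. It passed as lower without 9mCON replicate 1 (log2 -0.50, adjusted p = 0.0276) and without both libraries rich in erythroid transcripts (adjusted p = 0.0306). These comparisons share the 9mCON libraries with the genotype comparison, so the values stand side by side and are not independent of it. Here 7 of 8 slow and oxidative fiber and 4 of 11 denervated fiber markers were higher, 7 of 8 fibroblast, 5 of 7 tendon, 4 of 8 macrophage and 2 of 10 Schwann markers were lower, and muscle fiber markers had 1 of 9 higher and none lower (median log2 -0.02). Their part in the channel gene values was not tested.

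In 3mTSCmKO muscle, Clcn1 and Kcnn3 passed the test after rapamycin. Clcn1 fell to 208, 170.2, 149, 192 and 179 CPM from 221, 283, 237, 176 and 250.2, and Kcnn3 rose to 21.4, 17.0, 17.1, 35.6 and 23.7 CPM, where 10.6% of all genes tested were higher and 13% lower. The groups overlapped for both. The log2 fold changes were -0.38 ± 0.10 for Clcn1 (adjusted p = 0.0059) and 0.55 ± 0.20 for Kcnn3 (adjusted p = 0.0451). The call on Kcnn3 was lost under 11 of 20 alternatives, among them leaving out 3mTSCmKO+RM replicate 4, the library at 35.6 CPM (log2 0.33, adjusted p = 0.268), while Clcn1 kept its call under all 20. In the same comparison 5 of 9 muscle fiber markers were higher (median log2 0.46), denervated fiber markers had 5 of 11 higher and 1 lower (median 0.48), and 3 of 8 fibroblast and 2 of 8 macrophage markers were higher. Muscle fiber markers summed to 146383 to 164325 TPM in 3mTSCmKO+RM against 121352 to 160279 TPM in 3mTSCmKO, and the part of these lists was not tested.

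Relative to untreated 3mCON, 3mTSCmKO+RM muscle had lower Clcn1 (log2 -0.50 ± 0.10, adjusted p = 0.000464), Scn4b (log2 -0.48 ± 0.12, adjusted p = 0.00405) and Kcnj2 (log2 -0.51 ± 0.14, adjusted p = 0.00869), and Kcnn3 was 3.10-fold higher (log2 1.63 ± 0.21, adjusted p = 4.05e-07), where 8.98% of all genes tested were higher and 7.71% lower. All 5 treated knockout libraries of Clcn1 and Kcnn3 lay outside the range of the 3mCON libraries. Scn4a did not overlap either, at 662 to 808 against 832 to 976 CPM, yet its log2 fold change of -0.32 ± 0.18 gave an adjusted p of 0.246, and passed with only the groups compared in the fit (log2 -0.31, adjusted p = 0.0114). Higher in this comparison were 2 of 8 macrophage, 1 of 9 muscle fiber, 1 of 8 slow and oxidative fiber and 1 of 7 tendon markers. Denervated fiber markers had 2 of 11 higher and 1 lower, and 1 of 5 satellite cell markers was lower. The part of these lists was not tested.

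In control muscle none of the 6 passed after rapamycin at either age. At 9 months 5.03% of all genes tested were higher and 6.82% lower, and at 3 months 0.362% and 0.318%. By DESeq2 and by limma the count was also 0, and at an unadjusted p under 0.05 it was 2 at 9 months (Kcnn3, log2 -0.50, -0.95 to -0.06, and Kcnj2, log2 0.30, 0.02 to 0.58) and 1 at 3 months (Kcnj2, log2 -0.43, -0.71 to -0.15). Kcnj2 at 3 months passed without 3mCON replicate 2 (log2 -0.55, adjusted p = 0.0417). After rapamycin in 9mCON, 8 of 8 fibroblast, 6 of 7 tendon, 6 of 8 macrophage and 1 of 10 Schwann markers were lower. Higher there were 2 of 9 muscle fiber and 1 of 11 denervated fiber markers. In 3mCON none of the cell type markers passed. The part of these lists in the channel gene values was not tested. The test of whether rapamycin acted differently in the 2 genotypes was passed by 4.87% of all genes tested at 9 months and 3.45% at 3 months, and by none of the 6 in edgeR, DESeq2 or limma (0 and 2 at an unadjusted p under 0.05). For Scn4a at 9 months this difference was 0.48 on the log2 scale with an interval of -0.04 to 0.99, so its rise in the knockout is not shown to differ from the 0.15 (-0.21 to 0.51) in controls.

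**Figure D3:**
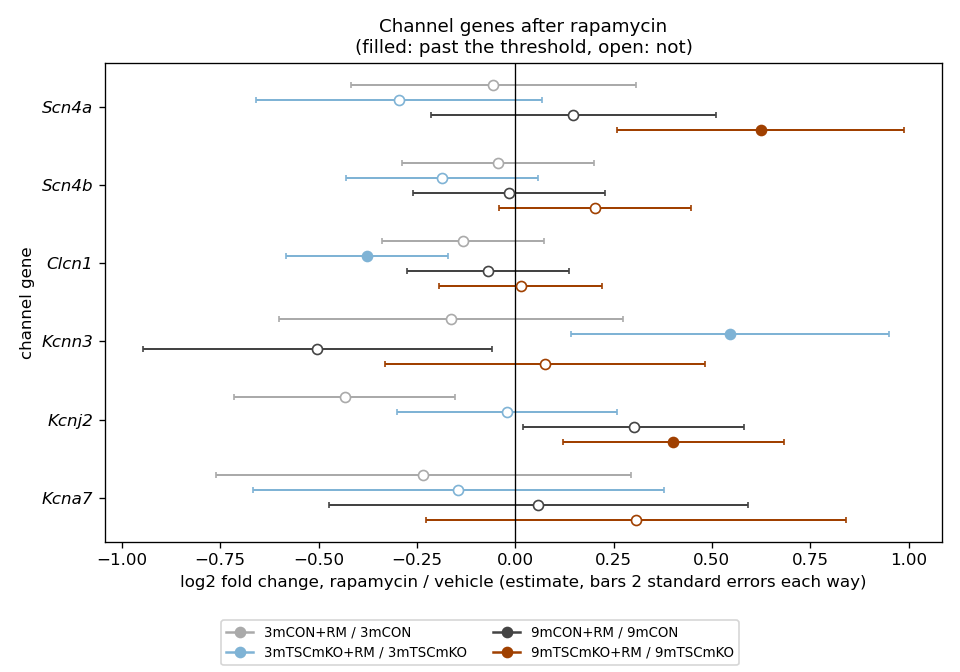
Log2 fold change of each channel gene after 3 days of rapamycin (x axis) in the 4 combinations of age and genotype, with bars of 2 standard errors each way and filled points past an adjusted p of 0.05. Filled points are Scn4a and Kcnj2 in 9mTSCmKO and Clcn1 and Kcnn3 in 3mTSCmKO.

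The 6 genes differed in how they varied from library to library. Over the 40 libraries, with log2(CPM + 1) values that include the group differences, Scn4b and Clcn1 followed each other most closely (Pearson r = 0.92), and Scn4a followed both (0.79 and 0.78). Kcnn3 ran opposite to Scn4b and Clcn1 (-0.67 and -0.62). After the group means were removed, Scn4a was closest to Kcna7 (0.70), and Kcnn3 was no longer opposite to Scn4b or Clcn1 (0.20 and 0.22). These r values are descriptions over libraries that also differ in depth, and carry no test.

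Scn4a and Kcna7 were the most variable of the 6 genes in 9mCON, and in the same libraries. There replicate 1 was lowest and replicate 5 highest for both, with Scn4a at 385 and 1029 CPM and Kcna7 at 12.5 and 39.4 CPM, and Tsc1 followed at 51.3 and 122 CPM. Scn4b was also lowest in replicate 1 and highest in replicate 5, at 550 and 833 CPM. Clcn1, Kcnn3 and Kcnj2 were highest in replicate 5 too. Replicate 1 is the 9mCON library rich in erythroid transcripts. The coefficient of variation in 9mCON was 37.6% for Scn4a and 41.7% for Kcna7 and 33.5% for Kcnn3, against 7.83% for Kcnj2 and 8.96% for Clcn1. Among 9638 genes with a mean of at least 5 CPM, those most like Scn4a over 40 libraries were Hcfc1 (r = 0.95) and Adcy9 (0.95), and those most like Kcna7 were Dmxl1 (0.91) and Mbd5 (0.90). The gene most like Scn4b was Clcn1, followed by Dcun1d2 (0.92). For Clcn1 the list began with Tmem94 (0.93), and for Kcnn3 it was Mfhas1 (0.89) and Zmat3 (0.88). Kcnj2 had no close companion, with Rcor3 at 0.60 and Spice1 at 0.56.

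Other channel, pump and partner genes were taken from 9 lists of 157 genes, of which 89 passed the filter. At 9 months, 18 of the 89 were higher and 21 lower in 9mTSCmKO than in 9mCON, with a median log2 fold change of -0.11 against -0.02 over all genes tested. At 3 months 11 were higher and 13 lower, with a median of -0.12 against -0.02. Over all genes tested 19.1% were higher and 18.9% lower at 9 months, and 11.4% and 8.32% at 3 months. When each of the 10 libraries compared was left out in turn, 26 of the 39 calls at 9 months and 19 of the 24 at 3 months were kept each time. None of the 6 channel genes is on these lists.

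Among other sodium channel subunits, 2 of 5 were higher in 9mTSCmKO and none lower. One of them was Scn3b, an accessory beta subunit, with a log2 fold change of 0.70, a call that was lost without 9mCON replicate 2, 3, 4 or 5 or 9mTSCmKO replicate 1 or 3 (adjusted p up to 0.140). The partners that anchor or remove sodium channels had 1 of 10 higher and 4 lower, the latter including Ank1, an ankyrin, at -0.67. Of 15 other chloride channels, 1 was higher and 2 were lower, the latter including Ano5 at -0.93. Of 6 regulators of splicing of the Clcn1 transcript, 1 was higher and 2 were lower, the latter being Celf2 (-0.71) and Hnrnpa1 (-0.65). Splicing itself was not analysed here.

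Potassium channel genes moved in both directions. Kcnip2, an auxiliary subunit of Kv4 channels, had a log2 fold change of 5.44 ± 0.41 in 9mTSCmKO, from 0.445 ± 0.230 to 20.2 ± 9.01 CPM (adjusted p = 2.09e-13). Kcnk3, a two-pore background channel, went from 0.919 ± 0.474 to 36.3 ± 12.3 CPM (log2 5.27 ± 0.50, adjusted p = 1.73e-10), and Kcnj3, a G protein-gated inward rectifier, from 0.756 ± 0.258 to 9.63 ± 2.37 CPM (log2 3.65 ± 0.26, adjusted p = 2.77e-14). These 3 were also higher at 3 months, by 3.60, 2.75 and 1.85 on the log2 scale. For Kcnk3 that value was 1.82 (adjusted p = 0.00102) without 3mTSCmKO replicate 4, the library at 15.9 CPM. Among list genes that passed the test and had a mean of at least 1 CPM, the largest fall was in Lrrc38, an auxiliary subunit of the BK channel, from 55.9 ± 2.92 to 12.2 ± 2.23 CPM (log2 -2.19 ± 0.25, adjusted p = 6.48e-09), followed by Kcnq5, an M-type channel (log2 -1.81), and Kcne4, an auxiliary subunit (log2 -1.12), whose call was lost without 9mCON replicate 2 (log2 -0.52, adjusted p = 0.303) and without 9mTSCmKO replicate 1 (log2 -0.79, adjusted p = 0.0691). At 3 months the 3 largest falls with the same limits were in Lrrc38 (-1.20), Hnrnpa1 (-0.95) and Scn3b (-0.95).

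Of 8 other calcium-activated subunits, 1 was higher at 9 months and 3 were lower. Kcnu1, a relative of the BK channel, had a log2 fold change of 1.33. Kcnn1 and Kcnn2, which encode SK1 and SK2, were at -0.78 and -0.80, opposite in sign to Kcnn3. At 3 months Kcnn1 was likewise lower (log2 -0.71, adjusted p = 4.28e-06), Kcnu1 higher (1.54, adjusted p = 5.41e-05), and Kcnn2 at -0.25 did not pass. Of the inward rectifier and ATP-sensitive group, 1 of 8 was higher and 4 were lower, among them Kcnj11, the pore of the ATP-sensitive channel, at -0.80 and Kcnj8, another pore subunit of such channels, at -0.67, while Kcnj2 was at -0.15 and did not pass. Of 19 other voltage-gated subunits, 5 were higher and 6 lower. Among two-pore channels 2 of 5 were higher, and among 13 sodium pump subunits 4 were higher and none lower.

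**Figure D4:**
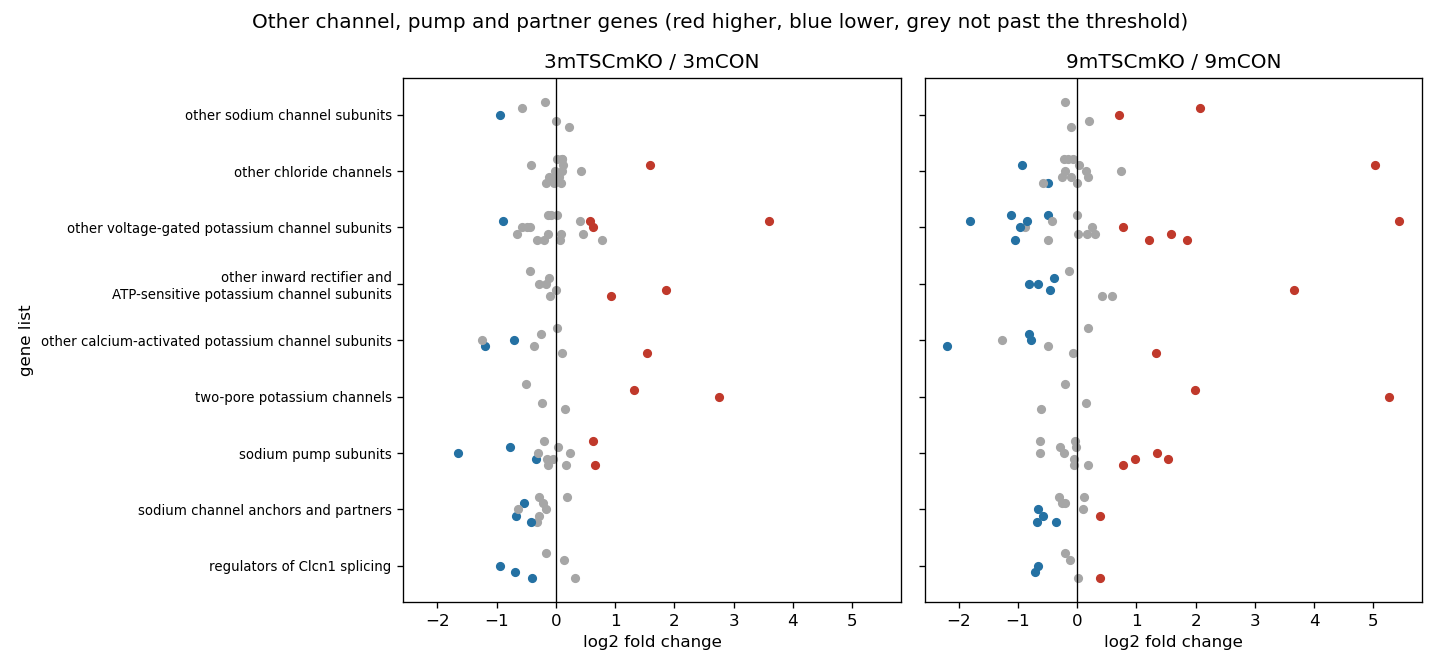
Log2 fold change between TSCmKO and CON muscle (x axis) of each tested gene in the 9 lists (rows), at 3 months (left) and 9 months (right), with 1 point per gene. Red points are higher and blue points lower at an adjusted p under 0.05 and the largest on the right are Kcnip2 (5.44) and Kcnk3 (5.27).

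After rapamycin in 9mTSCmKO, 15 of the 89 were higher and 21 lower, where 15.8% of all genes tested were higher and 16.8% lower, and 27 of these 36 calls were kept when each library compared was left out in turn. Among the larger rises were those of Kcnq5 (log2 1.46 ± 0.23, adjusted p = 5.14e-06) and the sodium pump beta subunit gene Atp1b2 (0.91 ± 0.15, adjusted p = 1.31e-05). Among the larger falls were those of Kcnk3 (-2.78 ± 0.42, adjusted p = 3.95e-06) and Atp1b4, a muscle relative of the pump beta subunits (-1.46 ± 0.24, adjusted p = 1.19e-05). Kcnk3 thereby went from 36.3 ± 12.3 to 5.30 ± 1.28 CPM and Kcnq5 from 10.6 ± 4.20 to 29.1 ± 3.34 CPM. In 9mCON after rapamycin, Atp1b2 went from 291 ± 32.1 to 400 ± 59.5 CPM and Atp1b4 from 15.0 ± 3.68 to 7.88 ± 1.18. Kcnk3 went there from 0.919 ± 0.474 to 0.732 ± 0.399 CPM and Kcnq5 from 37.1 ± 14.7 to 41.5 ± 5.06. Atp1b2 in untreated 9mTSCmKO was at 284 ± 11.9 CPM. In 3mTSCmKO, 11 were higher and 18 lower after rapamycin, where 10.6% of all genes tested were higher and 13% lower.

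Markers of other cell types and fiber states were read from 12 lists beside these results. Denervated fiber markers had 9 of 11 higher and 1 lower in 9mTSCmKO than in 9mCON, with a median log2 fold change of 1.01, and sums of 836 to 1336 against 627 to 1314 TPM. Fibroblast markers had 6 of 8 lower, tendon 4 of 7 lower, smooth muscle and pericyte 4 of 8 lower, endothelial 2 of 8 lower, Schwann 2 of 10 lower, adipocyte 2 of 7 lower, and macrophage 1 of 8 higher and 1 lower. None of 5 erythroid and none of 5 satellite cell markers passed. Between genotypes at 3 months, denervated fiber markers had 1 of 11 higher and 1 lower, with a median log2 fold change of -0.42. Slow and oxidative fiber markers had 2 of 8 higher there. Lower were 1 of 9 muscle fiber, 1 of 8 smooth muscle and pericyte and 1 of 7 tendon markers, and none passed in the other lists. The part of these markers in the channel gene values was not tested at either age.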

How the data were processed

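EDL messenger RNA was captured on oligo(dT) beads and sequenced as stranded single-end reads in 40 muscles. According to the study's methods and the submitters' processing notes, the authors trimmed reads with cutadapt 1.9.1, assigned them to Ensembl protein-coding transcripts of GRCm38 with kallisto 0.43.1, and summed transcripts per gene. The estimated counts were deposited as whole numbers, and the deposited TPM values sum to the same total in each library. Sources disagree on the rapamycin dose.

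The counts were fitted here with edgeR 4.0.16 (R 4.3.3), the tool the authors name, on genes with 1 CPM in 5 libraries, with TMM scaling, 1 robust quasi-likelihood fit of all 8 groups, and Benjamini-Hochberg adjustment over 13543 genes with a threshold of 0.05. Intervals are 2 standard errors each way. The share of all genes tested whose groups did not overlap was not counted in any comparison. With 8883870 to 35224669 counts per library, all 6 genes were counted in every library. The standard errors rest on a spread estimated for each gene over all 8 groups, and not only on the 5 libraries of a group. No 2 libraries were identical. According to the study, each muscle came from a separate mouse. The fit was tested on simulated data.

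The 6 genes, the pathway and marker lists and the 13 comparisons were chosen with earlier results of these data known. Tsc1, 2 most similar genes per channel gene, and the 3 largest rises and falls among list genes with a mean of 1 CPM or more were named by rule, and some genes that the rule names are not reported here. Ano5, Ank1, Celf2, Kcnn1, Kcnn2, Kcnu1, Kcnj8 and Kcnj11 were named after their values were seen. Alternatives were DESeq2 1.42.0, limma 3.58.1 on log2(TPM + 1), RLE and upper-quartile scaling, other filters, fewer groups in the fit, insert size or replicate number as a term (the library without an insert size, 9mTSCmKO+RM replicate 5, was dropped for the former), and leaving out each library (for the list genes, added after seeing the data). Promoters came from RefSeq (GRCm38.p6), where all 6 genes matched by symbol.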

Additional observations from a re-analysis of the deposited data

Results flagged for a closer look

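In 4 of the 48 sets of 5 libraries formed by a channel gene and a group, 1 library stood apart from the other four by more than 0.71 of the range, where chance gives about 1 in 20. Scn4b was at 783 CPM in 9mCON+RM replicate 5, with the others at 603 to 646, and Kcnj2 was at 109.9 CPM in the same library, with the others at 82.9 to 87.8. Kcnn3 was at 11.6 CPM in 9mTSCmKO+RM replicate 1, below 18.7 to 21.0 in the others. Kcna7 was at 43.8 CPM in 3mTSCmKO replicate 5, above 38.4 to 39.6.

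The genotype difference was more negative at 9 than at 3 months in a test of that difference for Scn4a (log2 -0.96, adjusted p = 0.0226), Scn4b (log2 -0.79, adjusted p = 0.00449) and Clcn1 (log2 -0.75, adjusted p = 0.00134). The 2 ages also differ in library insert size. With insert size as a term all 3 still passed.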

How the results depend on the processing

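Of the 78 fold changes of the 6 genes in 13 comparisons, 24 passed, 19 of these passed under every alternative run, and none of the 24 changed sign. Among those that did not pass, 16 changed sign under some alternative, all within 0.25 of 0 on the log2 scale.

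The count of channel genes that passed went from 2 to 1 for the genotypes at 3 months without both libraries rich in erythroid transcripts (an alternative chosen after seeing the data), from 2 to 1 for rapamycin in 9mTSCmKO with only the groups compared in the fit and with limma, and from 2 to 1 for rapamycin in 3mTSCmKO with no filter, with only the groups compared, with insert size as a term, with limma and with the replicate block. Leaving out 1 library at a time gave 1 to 2 in each of these 3 comparisons, 0 to 1 for rapamycin in 3mCON and 0 to 2 for age in CON. Kcnj2 at 3 months, Kcnj2 after rapamycin in 9mTSCmKO and Kcnn3 after rapamycin in 3mTSCmKO carried these losses, and the cause was not tested. Changes of sign were seen for Scn4a between genotypes at 3 months (log2 0.0097 without the erythroid-rich libraries, -0.16 to 0.11 leaving out 1 library), Clcn1 after rapamycin in 9mTSCmKO (-0.022 with limma, -0.029 to 0.048), Kcnn3 there (-0.052 to 0.19) and Kcnn3 for genotype by age (-0.060 to 0.30).

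Replicate numbers did not pair the samples: in no comparison did every same-numbered pair correlate above 0.1, and at most 4 of 10 samples were closest to their own number. With the replicate block the genotypes at 9 months gave 4 channel genes and 5082 genes in all, against 4 and 5133.

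Background counts moved both ways with only the groups compared in the fit: 2647 of 12794 genes at 9 months between genotypes, 312 of 13261 for genotype by age and 30 of 12640 for age in CON, against 5133, 669 and 138. The same setting raised the count to 419 from 92 for rapamycin in 3mCON and to 1194 from 467 for rapamycin by genotype at 3 months. Age in CON gave 375 genes with DESeq2, 942 without 9mCON replicate 5 and 26 with insert size as a term. Upper-quartile scaling raised the higher share of calls for rapamycin in 3mTSCmKO from 44.9% to 55.7%. Limma on TPM shifted the median log2 change of all genes for age in CON by -0.116.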
